A study of Homo sapiens with 18 samples.

Results

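Levels of 35 human genes that answer to amino acid shortage or to unfolded protein in the endoplasmic reticulum (ER) were examined in 18 RNA sequencing libraries. Members were listed by name for the known roles of their products, with earlier results of these data in view, and each of the 35 matched 1 of the 50119 genes listed. They formed an amino acid arm of 17 genes (ATF4, DDIT3, TRIB3, CHAC1, ASNS, PSAT1, PHGDH, PSPH, SHMT2, MTHFD2, SESN2, VLDLR, STC2, CEBPB, CEBPG, NUPR1 and ATF5) and an ER arm of 18 genes (HSPA5, HSP90B1, DNAJB9, DNAJC3, PDIA4, PDIA6, CALR, CANX, XBP1, ERN1, ATF6, HERPUD1, SDF2L1, CRELD2, MANF, HYOU1, SEL1L and EDEM1). DDIT3 and some others are known to answer to both stresses, so the arms describe the best known role of each gene.

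When amino acids run short or unfolded protein builds up, kinases phosphorylate the translation factor eIF2alpha, most protein synthesis slows, and the mRNA of the transcription factor ATF4 is translated more. ATF4 then switches on genes for amino acid uptake and synthesis, for tRNA charging and for other stress regulators. Unfolded protein in the ER also acts through the sensors ATF6 and IRE1 (gene ERN1). IRE1 splices the XBP1 mRNA, and both routes raise chaperones, disulfide isomerases and the machinery that removes misfolded protein. Secretory cells such as those of the bone lineage depend on this ER capacity. Gene level values show mRNA amounts only, neither the translation of ATF4 nor the splicing of XBP1.

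The libraries came from Saos-2, a human osteosarcoma (OS) cell line, with the genotype given as WT, in 6 groups of 3. D-2 was flat culture, D-3 was cells mixed into Matrigel, DP-3 was cells printed in a bioink of methacrylated gelatin and alginate, and IT was pieces of xenograft tumor kept on Matrigel, all after 14 days of culture. FIT was tumor taken fresh from nude mice, in which cells in Matrigel had been implanted under the skin 2 weeks earlier, and DP-3 day 1 was printed tissue after 1 day. The paper states that excised tumor was divided, with 1 part cultured as isolated tissue and the rest used fresh. The labels do not tie IT and FIT libraries to mice, nor do they say that replicates came from separate cultures. The p-values therefore measure only the spread between these libraries, which may be technical. Expression is given as FPKM, fragments per kilobase of gene in a library of standard size, and changes were tested on the deposited estimated counts with edgeR's quasi-likelihood test. A gene passed when its Benjamini-Hochberg adjusted p, over all genes tested, was below 0.05 and its fold change was at least 2. Genes with an adjusted p below 0.05 and a change of less than 2-fold are described as smaller changes.

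Total estimated counts ranged from 23721666 in FIT replicate 3 to 79082786, and the lowest total of the other libraries was 50327345. Mitochondrial genes took 34.0% of the FPKM of DP-3 replicate 3 and 9.85% to 25.2% elsewhere. Of 10 osteoblast lineage markers, SPARC (111 to 289 FPKM), COL1A1, COL1A2 and RUNX2 were present in every library. ALPL reached at most 0.148 FPKM, SP7 at most 0.0949 and IBSP at most 0.0802 in any library, so defining markers of mature osteoblasts were at or near 0 in cells labelled as Saos-2. Markers of macrophages, red blood cells and skeletal muscle were low. Summed FPKM of 8 macrophage genes stayed at 2.98 or less and that of 5 red blood cell genes at 0.841 or less. That of 9 skeletal muscle genes was 1.01 to 5.55 in FIT and at most 0.697 elsewhere. Other lists were higher. Sums of 7 endothelial genes ran from 24.2 in D-2 to 48.6 in IT, and those of 6 fibroblast genes from 9.14 in D-3 to 33.6 in FIT. Sums of 6 adipocyte genes were 0.155 to 0.574 in FIT, 2.55 to 3.61 in D-3 and 0.876 to 8.71 in DP-3. These are rows of human genes, so they do not show how much RNA of the mouse host the tumor libraries held. PECAM1, CDH5 and TEK, 3 of the 4 endothelial genes tested, were lower than in FIT in both D-2 and D-3. In tumor tissue a change in the share of tumor cells and a change of RNA per cell cannot be told apart.

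Promoter sequences from RefSeq (GRCh38.p14, 250 bases before the start of transcription to 50 bases after it) matched 32 of the 35 genes by symbol. They were searched for DNA elements known to bind the ER stress factors and ATF4. Promoters of 5 genes that held a match are printed. DDIT3, TRIB3 and SESN2, which the results return to, had 0 matches and are not printed. On either strand, the ER stress response element was searched as CCAAT and CCACG with 9 bases between them. It was found in 7 of 18 ER arm genes (HSPA5, HSP90B1, PDIA6, CALR, CANX, XBP1 and CRELD2) and in 0 of 14 amino acid arm genes, against 0.0916% of all 27305 genes with a promoter in the table. Its second form, ATTGG and CCACG with 1 base between them, was found in 3 of 18 (HERPUD1, SDF2L1 and HYOU1) and 0 of 14, against 0.0696% of all genes. The core TGACGTGG was found in HYOU1, overlapping a second form element, and in 0.927% of all genes. The element shared by ATF4 and C/EBP factors, TGATGNAAN, was found in 3 of 14 amino acid arm genes (ASNS, CEBPG and CHAC1) and in 1 of 18 ER arm genes (HERPUD1), against 4.45% of all genes. A match says only that these letters stand in the window. In the 5 sequences below, the 250 bases before the start are written from 5′ to 3′ along the gene, and capitals mark the matches.

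ASNS, asparagine synthetase, with the ATF4 and C/EBP element at bases -68 to -60 from the start (chr7:97872409-97872658 on the minus strand). CHAC1, which breaks down glutathione, with the element on the opposite strand at -210 to -202 (chr15:40953221-40953470 on the plus strand). HERPUD1, a part of the ER degradation machinery, with the ATF4 and C/EBP element on the opposite strand at -177 to -169 and the second form of the ER element at -117 to -107 (chr16:56931892-56932141 on the plus strand). HSPA5, the main ER chaperone, with the ER element at -66 to -48 (chr9:125241344-125241593 on the minus strand). XBP1, with the ER element at -52 to -34 (chr22:28800570-28800819 on the minus strand).
ASNS: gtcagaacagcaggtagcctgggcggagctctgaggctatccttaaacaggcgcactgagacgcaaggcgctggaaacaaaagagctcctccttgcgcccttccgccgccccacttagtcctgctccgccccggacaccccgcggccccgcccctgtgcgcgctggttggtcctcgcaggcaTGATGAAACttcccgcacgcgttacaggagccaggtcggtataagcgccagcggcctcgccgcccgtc
CHAC1: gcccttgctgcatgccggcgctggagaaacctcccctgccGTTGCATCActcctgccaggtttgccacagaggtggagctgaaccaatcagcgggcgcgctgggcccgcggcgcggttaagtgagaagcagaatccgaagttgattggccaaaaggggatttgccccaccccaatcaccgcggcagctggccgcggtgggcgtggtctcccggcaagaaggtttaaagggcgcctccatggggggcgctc
HERPUD1: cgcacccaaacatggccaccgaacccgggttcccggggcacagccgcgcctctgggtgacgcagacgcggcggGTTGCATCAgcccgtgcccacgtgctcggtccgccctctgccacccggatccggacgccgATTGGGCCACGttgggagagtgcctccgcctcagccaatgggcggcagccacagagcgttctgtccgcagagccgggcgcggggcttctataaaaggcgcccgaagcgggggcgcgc
HSPA5: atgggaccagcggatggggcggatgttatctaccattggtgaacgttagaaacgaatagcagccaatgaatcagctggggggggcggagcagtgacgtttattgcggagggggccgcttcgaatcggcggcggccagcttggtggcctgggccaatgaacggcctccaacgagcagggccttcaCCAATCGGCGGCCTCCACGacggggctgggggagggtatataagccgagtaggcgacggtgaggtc
XBP1: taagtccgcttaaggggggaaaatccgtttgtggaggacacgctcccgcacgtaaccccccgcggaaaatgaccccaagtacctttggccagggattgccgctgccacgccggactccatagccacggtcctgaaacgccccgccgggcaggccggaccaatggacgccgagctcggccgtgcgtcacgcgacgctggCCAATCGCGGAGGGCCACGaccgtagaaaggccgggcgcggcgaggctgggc

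Over the 6 groups together, 12 of the 17 amino acid arm genes and 10 of the 18 ER arm genes passed a test of any difference, with a fold change of at least 2 between the highest and the lowest group. Of all 25977 genes tested in this way, 23.8% passed, and 37.3% had an adjusted p below 0.05 at any fold. Among genes that passed, the largest fitted differences in the amino acid arm were 19.3-fold for DDIT3, 7.95-fold for TRIB3, 7.47-fold for ASNS, 6.85-fold for SESN2, 5.17-fold for NUPR1 and 4.12-fold for STC2, each with D-3 as the highest group. In the ER arm they were smaller, at 4.29-fold for DNAJB9, 3.61-fold for ERN1, 3.18-fold for HSPA5, 2.86-fold for HERPUD1, 2.49-fold for XBP1 and 2.43-fold for MANF. The median over the arm was 2.04 on the log2 scale for the amino acid arm and 1.06 for the ER arm, beside 1.49 over all genes tested. ATF4, SHMT2, ATF5, VLDLR, CHAC1, SDF2L1, CANX, DNAJC3 and CRELD2 had adjusted p-values above 0.05, and PDIA6, SEL1L, CALR and EDEM1 differed with an adjusted p below 0.05 but by less than 2-fold.

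**Figure D1:**
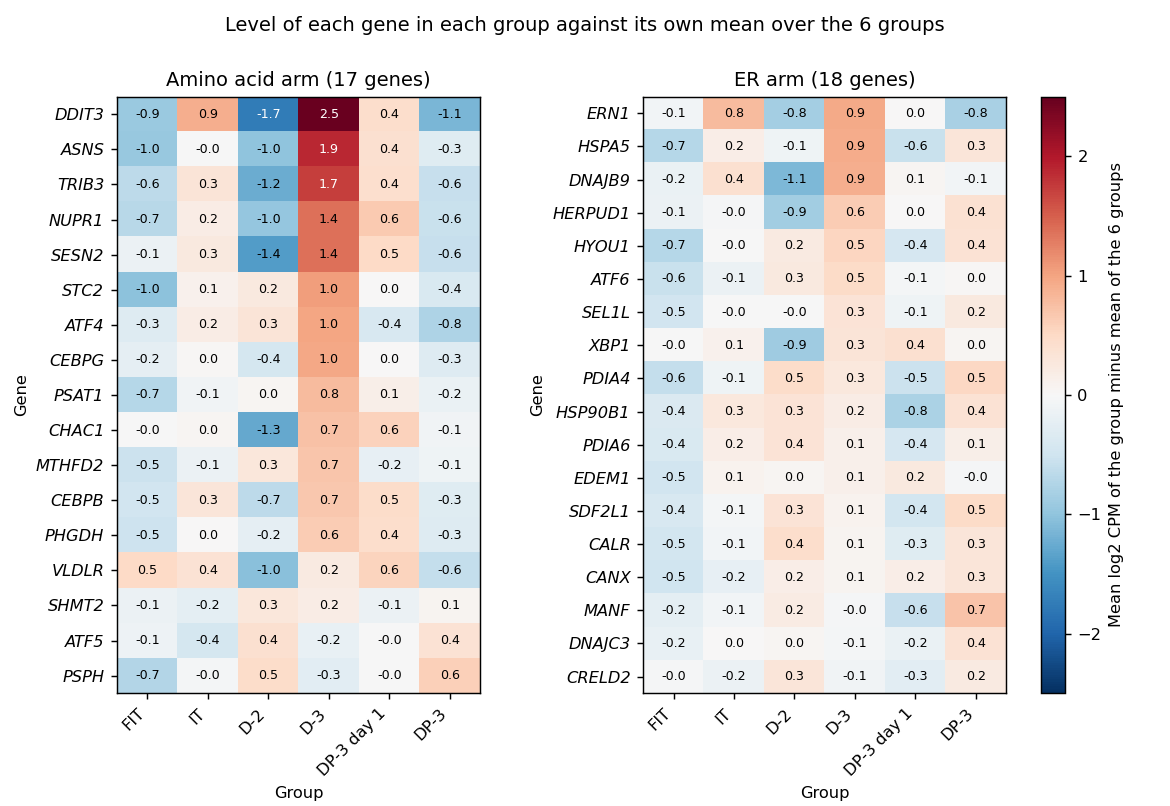
Mean log2 CPM (counts scaled to a common library size by TMM) of each gene in each group minus the mean of the 6 groups, 3 libraries per group, with the amino acid arm on the left and the ER arm on the right. DDIT3 spans the widest range, from -1.74 in D-2 to 2.46 in D-3, while no ER arm gene lies further than 1.12 from its own mean.

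ATF4 (ENSG00000128272, chr22:39519672-39522683, plus strand) itself was uneven between replicates. It measured 157, 24.9 and 40.9 FPKM in D-3, 15.3, 23.4 and 65.1 in D-2 and 22.5, 18.04 and 65.8 in IT, so 1 library was well above the others in each of these groups. In FIT the values were 21.9, 27.8 and 15.1, in DP-3 day 1 22.9, 21.7 and 20.6 and in DP-3 12.4, 14.8 and 14.6. Its adjusted p over the 6 groups was 0.0572 in edgeR's quasi-likelihood test. The gene passed in 1 comparison, lower in DP-3 than in D-3 (log2 fold change -2.19 ± 0.60 SE, adjusted p = 0.0452), and it did not pass without D-3 replicate 1 (the library at 157 FPKM), D-3 replicate 3 or any 1 of the DP-3 libraries. Rows for 4 ATF4 pseudogenes were listed, of which the highest reached 4.79% of the FPKM of ATF4 in a library.

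DDIT3 (ENSG00000175197, chr12:57516588-57521737, minus strand), which encodes the transcription factor CHOP, was the most variable member. It measured 145, 64.6 and 112 FPKM in D-3, 49.9, 18.9 and 36.2 in IT and 26.0, 30.2 and 21.8 in DP-3 day 1. Values were 11.001, 9.61 and 7.30 in FIT, 7.29, 8.36 and 5.97 in DP-3 and 5.38, 4.77 and 3.70 in D-2. All D-3 libraries were above every library of the other groups, and all D-2 libraries were below every library of the 5 other groups. Mean FPKM followed the order D-3, IT, DP-3 day 1, FIT, DP-3 and D-2, and the ranges of the neighbours IT and DP-3 day 1 and of FIT and DP-3 overlapped. Exons of DDIT3 overlap those of MARS1 on the opposite strand over 27.2% of their bases in GENCODE 29, and how strand was used in counting is not given in the sources used here. MARS1, chosen for this overlap after its values were seen, lay between 15.9 and 28.9 FPKM in the 18 libraries and did not pass over the 6 groups (adjusted p = 0.0535 in edgeR's test).

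TRIB3 (ENSG00000101255, chr20:362835-397559, plus strand), a pseudokinase that binds ATF4, measured 46.6, 30.6 and 31.0 FPKM in D-3, 14.2, 16.8 and 13.3 in DP-3 day 1 and 30.6, 7.12 and 9.24 in IT. It stood at 8.32, 7.79 and 4.11 in FIT, 4.89, 6.63 and 6.96 in DP-3 and 3.94, 3.25 and 4.15 in D-2. IT replicate 1 equalled the lowest D-3 libraries, while the other IT libraries lay among or near those of FIT. ASNS (ENSG00000070669, chr7:97851677-97872542, minus strand) measured 25.3, 23.8 and 26.9 FPKM in D-3, 8.57, 9.58 and 9.59 in DP-3 day 1, 13.6, 3.82 and 5.05 in IT, 3.37, 5.46 and 5.73 in DP-3, 2.13, 2.74 and 6.28 in FIT and 2.76, 3.26 and 2.43 in D-2. No library of another group was above 13.6, and FIT replicate 3 exceeded the other FIT libraries. In GENCODE 29, 44.6% of the exon bases of ASNS are also annotated to a processed transcript on the same strand.

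SESN2 (ENSG00000130766, chr1:28259518-28282491, plus strand), a leucine sensor that restrains mTORC1, measured 30.0, 29.6 and 27.4 FPKM in D-3 and 16.2, 15.99 and 16.5 in DP-3 day 1. It measured 29.1, 7.39 and 9.26 in IT, 13.5, 9.77 and 6.59 in FIT, 5.00, 7.98 and 6.54 in DP-3 and 3.89, 3.14 and 3.56 in D-2. The 3 D-2 libraries were the lowest of the 18, and IT replicate 1 lay within the range of D-3. NUPR1 (ENSG00000176046, chr16:28532708-28538974, minus strand), a small nuclear protein induced by stress, measured 52.1, 42.4 and 37.7 in D-3, 26.4, 27.4 and 27.4 in DP-3 day 1 and 25.4, 13.3 and 17.03 in IT. It measured 12.0, 8.07 and 9.93 in FIT, 10.6, 9.57 and 9.25 in DP-3 and 6.70, 7.45 and 7.17 in D-2, and the ranges of FIT and DP-3 overlapped. STC2 (ENSG00000113739, chr5:173314713-173329503, minus strand), a secreted glycoprotein, departed from this order at its lower end. Its values were 27.5, 22.5 and 22.5 FPKM in D-3, 21.3, 8.44 and 9.48 in IT, 12.3, 11.5 and 13.0 in DP-3 day 1, 13.0, 10.7 and 11.2 in D-2, 8.41, 8.88 and 6.16 in DP-3 and 6.07, 6.10 and 4.45 in FIT, so that FIT and not D-2 was the lowest group.

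**Figure D2:**
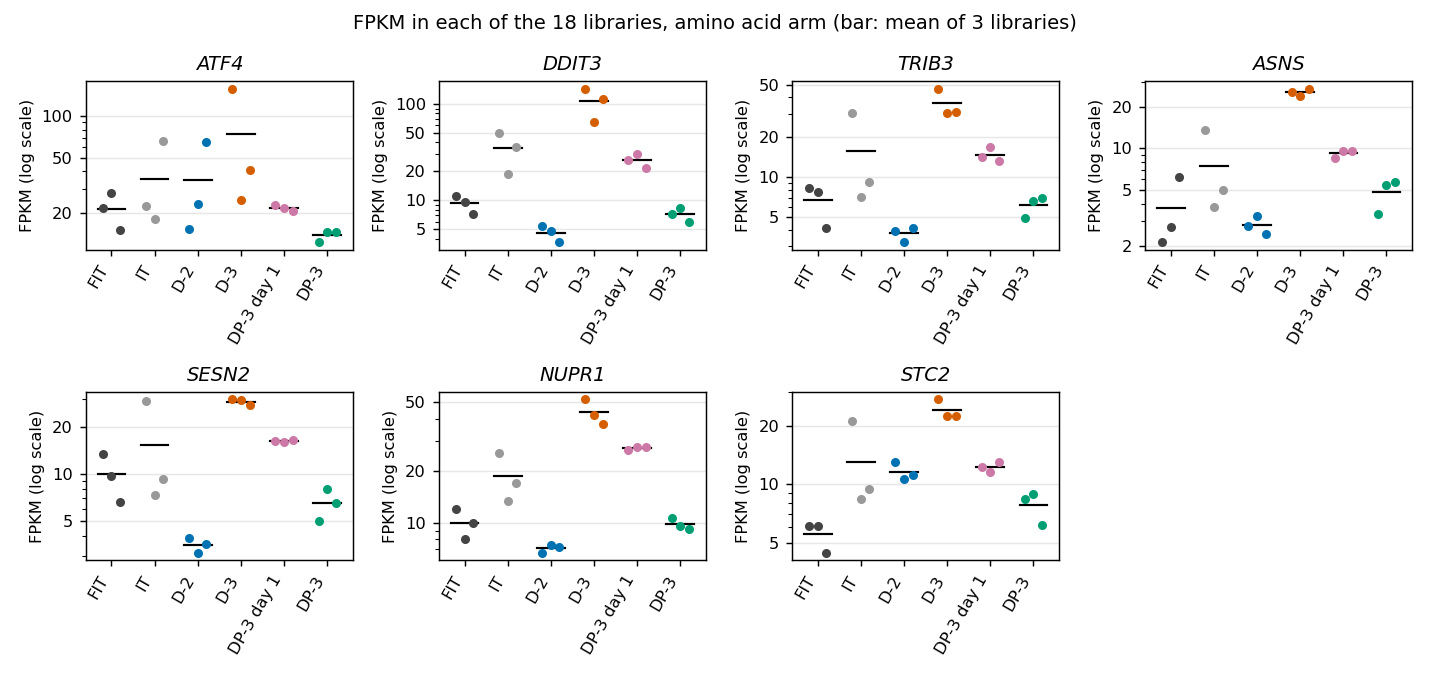
FPKM on a log axis in each of the 18 libraries for ATF4 and the 6 amino acid arm genes that passed with the largest fitted difference, by group, with points for libraries in replicate order and bars for the mean of 3. D-3 libraries are the highest for DDIT3, ASNS and NUPR1, IT replicate 1 stands far above the other IT libraries for TRIB3, ASNS, SESN2 and STC2, and ATF4 reaches 157 in 1 D-3 library.

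The serine synthesis enzymes PHGDH and PSAT1 and the mitochondrial folate enzyme MTHFD2 also had their highest means in D-3, at 21.4 ± 1.52, 89.8 ± 16.2 and 60.0 ± 4.47 FPKM (SD, n = 3). In FIT the means were 9.32 ± 2.32, 30.7 ± 10.6 and 24.3 ± 0.706. PSPH, which completes serine synthesis, was not highest in D-3. DP-3 had the highest mean at 10.4 ± 2.79, followed by D-2 at 9.03 ± 0.845, D-3 at 6.52 ± 0.532 and FIT at 4.82 ± 2.497. CEBPB and CEBPG, partner transcription factors of ATF4, were highest in D-3 at 100.1 ± 5.60 and 30.7 ± 7.50 FPKM, against 33.2 ± 0.894 and 9.42 ± 0.546 in D-2. CHAC1 was at 11.7 ± 7.62 in D-3, 9.35 ± 0.360 in DP-3 day 1 and 2.10 ± 0.311 in D-2, with IT spread from 1.83 to 24.3. VLDLR, a lipoprotein receptor, had a mean below 1 FPKM in every group and reached 1.63 in FIT replicate 3 alone. SHMT2, which supplies 1-carbon units in mitochondria, and ATF5 stayed within 1.43-fold and 1.82-fold over the groups.

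HSPA5 (ENSG00000044574, chr9:125234853-125241343, minus strand) measured 750.0, 726 and 491 FPKM in D-3, 288, 263 and 610.0 in IT and 321, 381 and 374 in DP-3. It measured 252, 257 and 277 in D-2, 242, 236 and 234 in DP-3 day 1 and 198, 172 and 219 in FIT. IT replicate 3 reached the range of D-3, and all other libraries outside D-3 were at or below 381. XBP1 (ENSG00000100219, chr22:28794555-28800597, minus strand) measured 63.9, 62.1 and 45.6 in DP-3 day 1, 55.9, 53.7 and 46.2 in D-3 and 61.0, 35.8 and 34.6 in IT. Its values were 53.6, 27.0 and 41.1 in FIT, 26.6, 41.0 and 44.7 in DP-3 and 18.1, 17.8 and 19.6 in D-2. The D-2 libraries were below every other library, and the ranges of FIT, IT and DP-3 overlapped. ERN1 (ENSG00000178607, chr17:64039142-64130819, minus strand), which encodes the sensor IRE1, measured 4.48, 2.20 and 3.63 FPKM in D-3, 3.09, 1.36 and 5.37 in IT and 1.79, 1.90 and 1.65 in DP-3 day 1. It measured 2.08, 1.69 and 1.04 in FIT, 0.730, 1.25 and 0.642 in DP-3 and 0.871, 0.805 and 0.706 in D-2, so D-2 and DP-3 overlapped at the lower end.

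DNAJB9 (ENSG00000128590, chr7:108569867-108574850, plus strand), a co-chaperone of HSPA5, measured 14.5, 17.96 and 8.22 FPKM in D-3, 7.77, 5.16 and 15.7 in IT and 7.62, 7.91 and 6.76 in DP-3 day 1. It measured 8.01, 4.28 and 5.81 in FIT, 5.15, 6.0004 and 5.73 in DP-3 and 2.754, 2.65 and 2.51 in D-2, where all 3 libraries were the lowest of the 18. HERPUD1 (ENSG00000051108, chr16:56932142-56944864, plus strand) measured 28.7, 36.2 and 22.0 FPKM in D-3. It measured 15.3, 23.3 and 23.9 in DP-3, 19.4, 19.1 and 18.8 in DP-3 day 1, 18.5, 12.8 and 20.6 in IT, 12.4, 13.1 and 23.9 in FIT and 10.1, 8.05 and 7.20 in D-2. Apart from D-2, which was below the rest, neighbouring groups overlapped. MANF (ENSG00000145050, chr3:51385291-51389397, plus strand), a secreted protein that binds HSPA5, showed another order, with 78.2, 88.004 and 76.2 in DP-3, 45.1, 93.4 and 42.3 in D-3 and 55.7, 51.2 and 58.3 in D-2. It measured 43.4, 60.2 and 54.4 in IT, 47.3, 39.0 and 52.5 in FIT and 39.9, 41.3 and 38.8 in DP-3 day 1. Here the other D-3 libraries lay below D-2, and D-3 replicate 2 was the highest library of all.

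**Figure D3:**
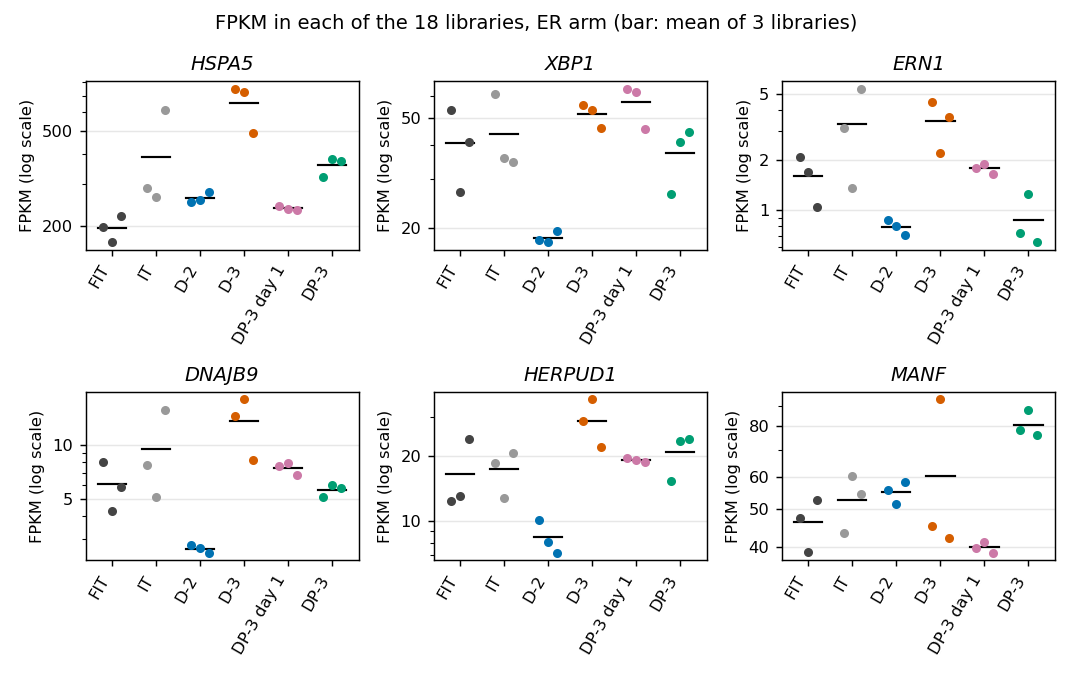
FPKM on a log axis in each of the 18 libraries for HSPA5, XBP1, ERN1, DNAJB9, HERPUD1 and MANF, by group, with points for libraries in replicate order and bars for the mean of 3. D-2 is the lowest group for XBP1, DNAJB9 and HERPUD1 but not for HSPA5 or MANF, and MANF is lowest in DP-3 day 1 by mean.

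The remaining ER arm genes varied less between groups. HSP90B1, the ER form of HSP90, had means of 239 ± 24.8 FPKM in DP-3 and 129.6 ± 9.32 in DP-3 day 1 (SD, n = 3). PDIA4, a disulfide isomerase, had 134 ± 14.4 in DP-3, 77.6 ± 2.72 in DP-3 day 1 and 69.9 ± 18.3 in FIT. HYOU1, which exchanges nucleotide on HSPA5, had 56.6 ± 12.3 in D-3 and 22.3 ± 3.67 in FIT, and the sensor ATF6 had 9.77 ± 1.69 and 4.51 ± 0.257. D-3 replicate 2 stood apart in several of them, with 235 FPKM for PDIA4 against 99.5 and 92.9 in the other D-3 libraries, 387 for HSP90B1 against 213 and 174, 37.6 for SDF2L1 against 13.8 and 14.7, and 24.1 for DNAJC3 against 10.2 and 8.96. In CRELD2, a secreted ER stress protein, that library held 9.15 FPKM and the other 17 between 2.73 and 5.09. The lectin chaperones CALR and CANX, the isomerase PDIA6 and the degradation factors SEL1L and EDEM1 differed by 1.66 to 1.88-fold between the highest and the lowest group.

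Flat culture was compared with cells in Matrigel, which differ in both geometry and the Matrigel itself, so their effects cannot be told apart. In D-3 against D-2, 9 of the 17 amino acid arm genes and 5 of the 18 ER arm genes passed, all higher in D-3, where 18.5% of the 20231 genes tested passed, 14.6% as higher and 3.95% as lower. DDIT3 rose 19.4-fold (log2 fold change 4.28 ± 0.33 SE, adjusted p = 0.00107), TRIB3 8.02-fold (log2 fold change 3.00 ± 0.21 SE, adjusted p = 7.60e-04), ASNS 7.53-fold and SESN2 6.90-fold. NUPR1, CHAC1, CEBPG, CEBPB and VLDLR rose 5.21-fold, 4.65-fold, 2.74-fold, 2.53-fold and 2.61-fold. These genes span transcription factors, asparagine synthesis, glutathione breakdown and the restraint of mTORC1. The 5 ER arm genes were DNAJB9 at 4.32-fold (log2 fold change 2.11 ± 0.28 SE, adjusted p = 0.00289), ERN1 at 3.62-fold, HERPUD1 at 2.88-fold, XBP1 at 2.36-fold and HSPA5 at 2.10-fold. The median log2 fold change was 1.34 in the amino acid arm, 0.08 in the ER arm and 0.11 over all genes. Smaller changes were a rise of PHGDH, STC2, PSAT1, MTHFD2 and SEL1L and a fall of PSPH by 0.72 on the log2 scale, and with these included 19.2% of all genes rose and 16.3% fell. The folds come from TMM-scaled counts and can differ from the ratio of mean FPKM, which for HSPA5 were 656 in D-3 and 262 in D-2. Of 10 proliferation markers, 6 were lower in D-3 than in D-2, with summed FPKM of 175 to 285 against 469 to 499, and their part in these results was not tested. VLDLR did not pass in 7 of the 13 other settings in which it was tested. Without D-3 replicate 2, the library high in ER chaperones, 7 ER arm genes were higher and 6 lower in D-3 at any fold. The ER arm median was then 0.045, beside 0.039 over all genes.

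Printed tissue on day 14 was compared with cells in Matrigel. Printing and the matrix (bioink or Matrigel) changed together, so their effects cannot be told apart. In DP-3 against D-3, 8 amino acid arm genes and 2 ER arm genes passed, all lower in DP-3, where 9.12% of 20682 genes passed 7.15% as lower and 1.98% as higher. DDIT3 fell 12.8-fold (log2 fold change -3.67 ± 0.30 SE, adjusted p = 0.00314), TRIB3 5.01-fold, ATF4 4.56-fold, ASNS 4.46-fold, NUPR1 3.86-fold, SESN2 3.83-fold, STC2 2.67-fold and CEBPG 2.498-fold. CEBPB, PHGDH, PSAT1 and MTHFD2 fell by less than 2-fold, and PSPH rose by 0.89 on the log2 scale (adjusted p = 0.0271 in edgeR's test). Among all genes 8.56% fell and 6.1% rose when smaller changes are included. ERN1 fell 3.38-fold (log2 fold change -1.76 ± 0.32 SE, adjusted p = 0.0151) and DNAJB9 2.07-fold. Of the 16 other ER arm genes, 0 had an adjusted p below 0.05. HSPA5 had a log2 fold change of -0.65 ± 0.21 SE (adjusted p = 0.0698). Arm medians were -0.96 and -0.04, with -0.05 over all genes. DNAJB9 did not pass under 6 of the 14 other settings and ATF4 under 8. Without D-3 replicate 2, 5 ER arm genes were higher and 2 lower in DP-3 at any fold. Of 10 proliferation markers 3 were higher in DP-3, with summed FPKM of 362 to 398 against 175 to 285, and their part was not tested.

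Printed tissue was followed from day 1 to day 14, and the genes that passed differed in direction between the arms. In DP-3 against DP-3 day 1, the 3 amino acid arm genes that passed were lower on day 14 and the 3 ER arm genes that passed were higher, where 7.56% of 20774 genes passed, 5.76% as lower and 1.81% as higher. DDIT3 fell 3.01-fold (log2 fold change -1.59 ± 0.16 SE, adjusted p = 0.00217), NUPR1 2.29-fold (log2 fold change -1.20 ± 0.08 SE, adjusted p = 0.00141) and SESN2 2.07-fold. MANF rose 2.43-fold (log2 fold change 1.28 ± 0.08 SE, adjusted p = 0.00134), HSP90B1 2.22-fold (log2 fold change 1.15 ± 0.10 SE, adjusted p = 0.00182) and PDIA4 2.07-fold. Counting smaller changes as well, 8 amino acid arm genes fell and 1, PSPH, rose, while 11 ER arm genes rose and 0 fell. Over all genes, 9.91% fell and 12.2% rose by this wider count. The further ER arm genes were HSPA5, HYOU1, CALR, PDIA6, DNAJC3, SDF2L1, CRELD2 and SEL1L, with log2 fold changes of 0.36 to 0.96. ERN1, XBP1, EDEM1 and DNAJB9 had log2 fold changes of -0.76, -0.34, -0.26 and -0.13 with adjusted p-values above 0.05. All their day 14 libraries were below those of day 1 in FPKM, as were those of 35.2% of all genes tested. Medians were -0.56 and 0.51, against -0.06 over all genes. The balance changed with limma on log2(FPKM + 0.1), where the median of all genes was -0.29. This setting called 1 member higher and 6 lower, and 2280 of 20774 genes in all. By the wider count it gave 5 ER arm genes higher and 3 lower, with an ER arm median of 0.24. Median-of-ratios scaling of the counts kept 3 members higher and 3 lower, and the cause of the change was not tested. In 1 fit of all 18 libraries 3 amino acid arm genes were lower by the wider count. Of 10 proliferation markers, 2 passed and 8 in all had an adjusted p below 0.05, higher on day 14, with summed FPKM of 362 to 398 against 251 to 259, and their part was not tested.

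Printed tissue on day 1 was also set against flat culture. In DP-3 day 1 against D-2, 8 amino acid arm genes passed as higher, and of 3 ER arm genes 2 passed as higher and 1 as lower, where 17.2% of 20269 genes passed, 13.1% as higher and 4.13% as lower. DDIT3 rose 4.54-fold (log2 fold change 2.18 ± 0.18 SE, adjusted p = 1.70e-04), SESN2 3.70-fold, CHAC1 3.57-fold, TRIB3 3.15-fold, VLDLR 3.12-fold, NUPR1 3.07-fold, ASNS 2.64-fold and CEBPB 2.17-fold. XBP1 rose 2.49-fold (log2 fold change 1.32 ± 0.13 SE, adjusted p = 3.65e-04) and DNAJB9 2.27-fold, whereas HSP90B1 fell 2.19-fold (log2 fold change -1.13 ± 0.11 SE, adjusted p = 3.19e-04). With smaller changes included, ERN1, HERPUD1 and EDEM1 joined the ER arm genes that rose, and 11 in all fell: HSP90B1, PDIA4, PDIA6, CALR, MANF, HSPA5, SDF2L1, HYOU1, CRELD2, ATF6 and DNAJC3. By the same count 10 amino acid arm genes rose and 3 fell, and 22.4% of all genes rose and 23.4% fell. The 3 were 1 with limma on log2(FPKM + 0.1) and in 1 fit of all 18 libraries. With limma on log2(FPKM + 0.1), where the median of all genes was 0.35, 6 ER arm genes rose and 7 fell, HSP90B1 did not pass and the differences of ATF6 and DNAJC3 had the opposite sign. In FPKM every DP-3 day 1 library of DNAJC3 was above every D-2 library, as was so for 44.5% of all genes tested. The ER arm median was -0.38 and that of the amino acid arm 0.66, with 0.09 over all genes. These groups differ in age of culture, bioink and geometry as well as in printing, and the effects of these cannot be told apart. Of 10 proliferation markers 8 were lower on day 1, with summed FPKM of 251 to 259 against 469 to 499 in D-2, and their part was not tested.

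**Figure D4:**
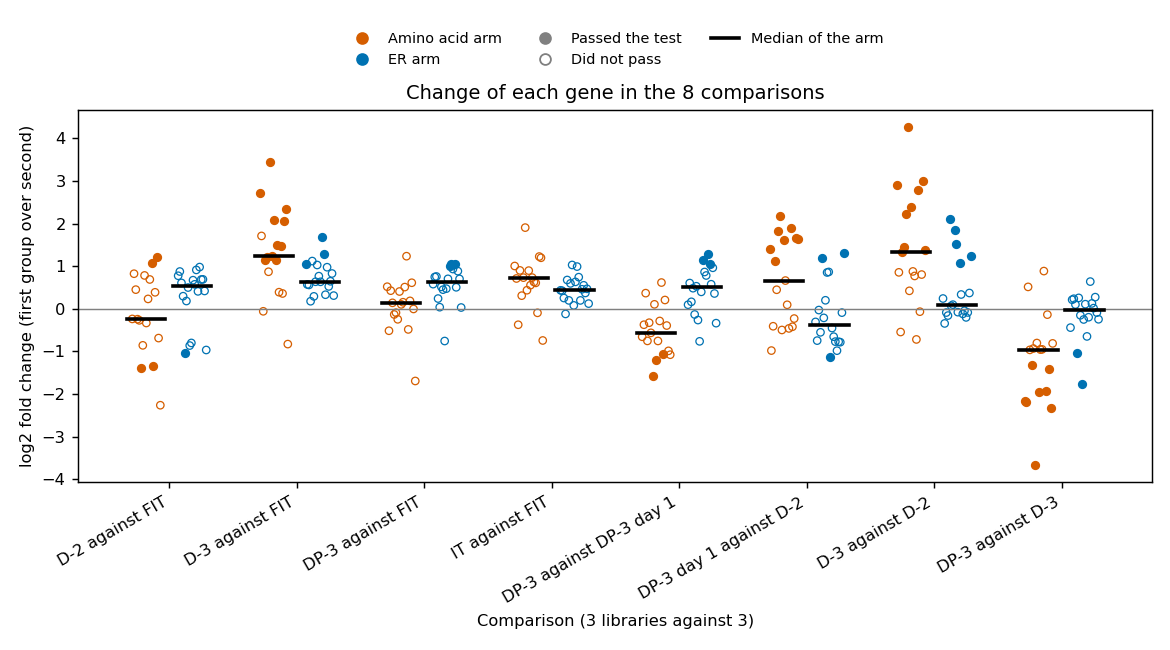
log2 fold change of each of the 35 genes in the 8 comparisons, first group over second, with filled points for genes with an adjusted p below 0.05 and at least a 2-fold change, open points for the rest and black bars for the arm median. The amino acid arm median is 1.34 in D-3 against D-2 and -0.96 in DP-3 against D-3, while the ER arm median is 0.08 and -0.04 there. Comparisons that name the same group share its 3 libraries.

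Each culture was compared with the fresh tumor, and these 4 comparisons share the FIT libraries. In D-3 against FIT, 11 amino acid arm genes and 3 ER arm genes passed, all higher in D-3, where 6.45% of 21676 genes passed, 4.29% as higher and 2.17% as lower. The 1 smaller change was a rise of SEL1L, and with such changes 5.11% of all genes were higher and 3.17% lower. DDIT3 rose 10.97-fold (log2 fold change 3.46 ± 0.32 SE, adjusted p = 0.00188), ASNS 6.60-fold, TRIB3 5.09-fold, NUPR1 4.25-fold and STC2 4.17-fold. PSAT1, SESN2, MTHFD2, CEBPG, PHGDH and CEBPB rose 2.20-fold to 2.83-fold. In the ER arm HSPA5 rose 3.22-fold (log2 fold change 1.69 ± 0.21 SE, adjusted p = 0.00505), HYOU1 2.44-fold and ATF6 2.08-fold. XBP1, DNAJB9, ERN1 and HERPUD1, which differed from D-2, did not pass against FIT, with log2 fold changes of 0.31, 1.12, 1.03 and 0.77. Medians were 1.24 and 0.64, with 0.02 over all genes. Against these 14 members, 7 members passed without D-3 replicate 3 and 9 without D-3 replicate 1. Of all genes, 240 of 20403 and 347 of 20484 passed there, against 1399 of 21676 with every library. Endothelial genes PECAM1, CDH5 and TEK were lower in D-3 in the same comparison, with a summed level of 7 endothelial genes of 38.3 to 40.1 against 31.9 to 44.4 FPKM that was mostly TIE1, and the summed level of 6 fibroblast genes was 9.14 to 10.4 against 24.6 to 33.6, and the part of either list was not tested.

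In D-2 against FIT the arms split within themselves. STC2 (2.33-fold) and PSPH (2.10-fold) passed as higher in D-2, and SESN2 (2.53-fold), CHAC1 (2.61-fold) and, in the ER arm, DNAJB9 (2.04-fold) as lower. That is 4 of 17 and 1 of 18 members, where 14.6% of 19513 genes passed, 3.83% as higher and 10.8% as lower. Counting smaller changes, 11 ER arm genes were higher and 3 lower, against 16% and 14.9% of all genes. The 11 were chaperones, isomerases and their partners and degradation factors with the sensor ATF6, led by PDIA4 (log2 fold change 0.98 ± 0.18 SE, adjusted p = 0.00784), HYOU1 and CALR. The 3 lower genes were XBP1 (-0.97), DNAJB9 and ERN1 (-0.86). DDIT3 was lower by a log2 fold change of -0.86 (adjusted p = 0.0292 in edgeR's test), short of 2-fold. In the amino acid arm the wider count was 5 higher and 3 lower, with smaller rises of MTHFD2 (0.78), PSAT1 (0.69) and SHMT2 (0.39). The 5 higher were 2 with FPKM of at least 1, with either limma setting and without any 1 library other than FIT replicate 3, when they were 6. The 11 higher ER arm genes were 7 without D-2 replicate 2 or D-2 replicate 3, and the 3 lower were 0 without D-2 replicate 1 or D-2 replicate 2. Medians were -0.24 and 0.54, with -0.09 over all genes, but the amino acid arm median was -0.08 with the replicate block, -0.06 without FIT replicate 1 and 0.18, of the opposite sign, without FIT replicate 3. Of 10 proliferation markers 4 were higher in D-2, with summed FPKM of 469 to 499 against 223 to 333, and their part and that of the endothelial genes was not tested. The number of members that passed was 2 without D-2 replicate 1 or without D-2 replicate 2 and 9 without FIT replicate 3, and limma on log2(FPKM + 0.1) called 1 higher and 4 lower. Of all genes, 1759 of 18988, 1818 of 18970, 2980 of 18387 and 3140 of 19513 passed in these settings, in the same order.

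In DP-3 against FIT, 0 amino acid arm genes and 3 ER arm genes passed, where 4.82% of 20039 genes passed, 1.66% as higher and 3.16% as lower. Before adjustment the amino acid arm held 3 of 17 genes with p below 0.05 in edgeR's test, beside 5540 of the 20039 genes tested. PDIA4 rose 2.09-fold (log2 fold change 1.06 ± 0.21 SE, adjusted p = 0.0280), HYOU1 2.08-fold and HSPA5 2.00-fold. With smaller changes, 8 ER arm genes were higher and 0 lower, against 4.21% higher and 4.19% lower among all genes, and MANF, SEL1L, CALR, ATF6 and DNAJC3 were the others. This wider count was 0 with the replicate block and without FIT replicate 1, FIT replicate 2 or DP-3 replicate 1, 1 without DP-3 replicate 2 and 2 without DP-3 replicate 3. The median was 0.64 in the ER arm, 0.14 in the amino acid arm and -0.06 over all genes. All 3 calls lay close to 2-fold, and 0 members passed without FIT replicate 1, FIT replicate 2, DP-3 replicate 1 or DP-3 replicate 3. Of all genes, 117 of 18753, 250 of 18912, 90 of 19400 and 233 of 19418 passed there, in the same order, against 965 of 20039 with every library. DP-3 replicate 3 is the library with the high mitochondrial share. In the same comparison PECAM1 and CDH5 were lower in DP-3 and 2 of 10 proliferation markers were higher, with summed FPKM of 362 to 398 against 223 to 333, and their part was not tested.

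In IT against FIT 0 members passed edgeR's test, as did 0 of 21183 genes (0%), although 2693 genes had an unadjusted p below 0.05. Among members, 4 amino acid arm and 7 ER arm genes had such a p, and DDIT3 had the smallest adjusted p (log2 fold change 1.91 ± 0.35 SE, adjusted p = 0.160). DESeq2 called 2 members higher, DDIT3 and STC2, and 661 of 21183 genes in all. The IT libraries differed widely from each other. Replicate 1 led the amino acid arm with 49.9 FPKM of DDIT3, 24.3 of CHAC1 and 86.7 of PSAT1, and replicate 3 led HSPA5 at 610.0, ERN1 at 5.37, DNAJB9 at 15.7 and CEBPB at 130.4. Medians were 0.71 and 0.45, with 0.01 over all genes, and the amino acid arm median was 0.25 without IT replicate 1.

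Per library, the median over an arm of log2 CPM minus each gene's mean over the 18 libraries gives a level that does not depend on any comparison. The amino acid arm stood at 0.80, 0.77 and 0.69 in D-3 and 0.28, 0.45 and 0.20 in DP-3 day 1. It was at 0.64, -0.37 and -0.22 in IT, -0.46, -0.23 and -0.29 in DP-3, -0.59, -0.48 and -0.51 in D-2 and -0.33, -0.69 and -0.58 in FIT. All D-3 libraries were the highest in this arm, and IT replicate 1 was nearer to them than to the other IT libraries. The ER arm stood at 0.21, 0.25 and 0.33 in DP-3, 0.19, 0.78 and 0.10 in D-3 and 0.15, 0.09 and 0.19 in D-2. It was at -0.15, -0.08 and 0.16 in IT, -0.22, -0.17 and -0.22 in DP-3 day 1 and -0.51, -0.42 and -0.24 in FIT. By this median DP-3 day 1 was thus high in the first arm and low in the second, and DP-3 and D-2 were the reverse. The ER arm was mixed in D-2. Against their own means, DNAJB9, XBP1, HERPUD1 and ERN1 lay at -1.12, -0.89, -0.86 and -0.85 there. HSPA5 and SEL1L lay at -0.11 and -0.01, and the rest of the ER arm was above 0.

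**Figure D5:**
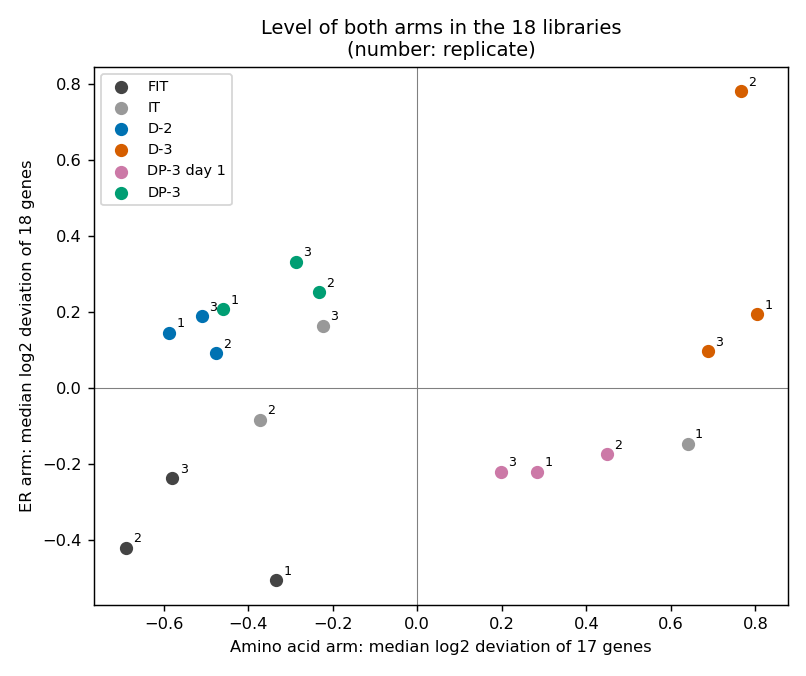
Median log2 deviation of the 17 amino acid arm genes (horizontal) and of the 18 ER arm genes (vertical) in each of the 18 libraries, coloured by group and numbered by replicate. D-3 lies to the right, DP-3 day 1 right and below 0, DP-3 and D-2 left and above 0, FIT left and below, and IT replicate 1 apart from the other IT libraries.

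Other genes of the pathways were counted from lists that held no member. Like the members, these lists were drawn up with earlier results known. Of 24 further ATF4 targets (amino acid transporters, tRNA synthetases and stress regulators), 9 were higher and 0 lower in D-3 against FIT, where 4.29% of all genes were higher, and 9 were higher and 0 lower in D-3 against D-2, where 14.6% were higher. In DP-3 against D-3 0 were higher and 7 lower, beside 7.15% lower among all genes, and in DP-3 against DP-3 day 1 0 were higher and 4 lower, beside 5.76%. In DP-3 day 1 against D-2 6 were higher and 0 lower, beside 13.1% higher. In D-2 against FIT 1 was higher and 4 were lower, where 14.6% of all genes passed, in DP-3 against FIT 1 was higher and 1 lower, where 4.82% passed, and in IT 0 passed. AARS1, the alanyl-tRNA synthetase, measured 114, 55.3 and 91.0 FPKM in D-3 and 17.2, 19.1 and 19.3 in D-2. DDIT4, which restrains mTORC1, measured 95.2, 55.4 and 140.2 in D-3, 55.6, 52.3 and 52.7 in DP-3 day 1, 6.12, 6.203 and 4.81 in DP-3 and 2.90, 3.56 and 4.32 in D-2. GDF15, a secreted stress factor, measured 66.0, 20.3 and 52.2 in D-3, 6.04, 5.06 and 5.44 in DP-3 day 1 and 0.303, 0.221 and 0.199 in D-2. ATF3, a transcription factor, measured 7.85, 5.61 and 4.97 in D-3 and 0.219, 0.574 and 0.389 in D-2. These 4 genes were named for their small adjusted p over the 6 groups. For each, D-3 lay above D-2 without overlap, as it did for 38.6% of all genes tested in that comparison. D-3 and DP-3 day 1 overlapped for DDIT4, and the rise from D-2 to D-3 was 3.93-fold, 22.6-fold, 157-fold and 12.9-fold.

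Of 7 eIF2alpha kinases, phosphatase subunits and eIF2alpha itself, only PPP1R15A, the stress-induced subunit that removes the phosphate from eIF2alpha, passed in any comparison. It measured 151, 112 and 97.1 FPKM in D-3, 103, 101 and 100.2 in DP-3 day 1, 42.7, 45.8 and 34.5 in DP-3, 43.4, 41.4 and 20.2 in FIT, 34.2, 29.7 and 26.4 in D-2 and 69.4, 26.4 and 135 in IT. It rose 3.35-fold in D-3 against D-2, 3.27-fold in D-3 against FIT and 2.72-fold in DP-3 day 1 against D-2, and fell 2.52-fold in DP-3 against D-3 and 2.06-fold in DP-3 against DP-3 day 1. The kinases EIF2AK1, EIF2AK2, EIF2AK3 and EIF2AK4 stayed within 1.497-fold over the 6 groups. Of 28 further unfolded protein response genes, 27 were tested over the 6 groups and 2 passed, where 23.8% of all genes did. They were ERO1B, an oxidase for disulfide bonds, and SSR1, a translocon subunit. ERO1B measured 2.745, 2.59 and 1.74 FPKM in D-3, 0.758, 0.743 and 0.849 in D-2 and 0.650, 0.630 and 0.602 in FIT. In the 8 comparisons this list gave 1 higher gene in D-3 against FIT, where 4.29% of all genes were higher. It gave 1 higher in D-3 against D-2, where 14.6% were higher. In DP-3 against D-3 it gave 1 higher and 1 lower, beside 1.98% and 7.15% of all genes, and elsewhere 0.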

How the data were processed

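RNA was sequenced from 18 libraries in 6 groups. Per the submitters' processing notes the tools included cutadapt 1.9, HISAT2 2.0.4, StringTie 1.3.4d, DESeq2 and edgeR; the genome build, and how the estimated counts were made, are not given in the sources used here. The authors deposited FPKM per gene, normalized for gene length and library total. The deposited estimated counts are whole numbers that pile up on multiples of 4 at low levels, as coverage does, and were not normalized.

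Members and lists were chosen with earlier results of these data known. For each comparison, the 6 libraries of the pair alone were fitted with edgeR 4.0.16 in R 4.3.3 (TMM scaling, quasi-likelihood F test, Benjamini-Hochberg adjustment over all genes tested), after keeping genes that reached 0.1 FPKM in 3 or more libraries. The 6 groups were also compared in 1 fit. Standard errors were derived from the log2 fold change and F. Every library is printed for ATF4, DDIT3, HSPA5, XBP1 and, in each arm, the 6 genes with the largest fitted fold among those that passed over the 6 groups and reached a mean of 1 FPKM in some group; in the other lists up to 4 genes that passed with the smallest adjusted p are named. Alternatives were median-of-ratios scaling, other filters, DESeq2 1.42.0, limma 3.58.1 on log2(FPKM + 0.1) and log2(FPKM + 1), a replicate block, 1 fit of all 18 libraries, and leaving out each library. On simulated counts for D-2 against FIT, edgeR recovered 14 of 67 genes changed 2-fold and 63 of 67 changed 4-fold, on 19064 genes tested. Gene positions are those of the deposited table, and all 35 overlap the gene of that ID in GENCODE 29.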

Additional observations from a re-analysis of the deposited data

Results flagged for a closer look

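For 12 genes, the change from the fresh tumor had opposite signs in D-2 and D-3, and the difference between these cultures, tested directly with edgeR, passed. On the log2 scale D-3 exceeded D-2 by 4.28 for DDIT3, 3.00 for TRIB3, 2.91 for ASNS, 2.79 for SESN2, 2.38 for NUPR1, 2.22 for CHAC1, 1.45 for CEBPG and 1.34 for CEBPB in the amino acid arm. In the ER arm the differences were 2.11 for DNAJB9, 1.86 for ERN1, 1.52 for HERPUD1 and 1.24 for XBP1. The genes were picked for opposite signs, so the signs are no result of their own. Each was below its FIT level in D-2 and above it in D-3, but only SESN2 passed against FIT in both. In D-2 against FIT only SESN2, CHAC1 and DNAJB9 of these genes passed. ASNS, CEBPB, CEBPG and NUPR1 lay at -0.24 to -0.33 there on the log2 scale.

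For 6 genes the change from FIT likewise had opposite signs in DP-3 and D-3, and the difference between these cultures passed. On the log2 scale the changes from FIT in DP-3 lay between -0.757 for ERN1 and -0.00388 for TRIB3. Of these falls from FIT, 0 had an adjusted p below 0.05 in edgeR's test. DP-3 minus D-3 was -3.67 for DDIT3, -2.32 for TRIB3, -2.19 for ATF4, -1.94 for SESN2, -1.32 for CEBPG and -1.76 for ERN1. ATF4 did not pass without D-3 replicate 1, D-3 replicate 3 or any 1 of the DP-3 libraries.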

How the results depend on the processing

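Scaling, filter, test and each library in turn were varied. Members called changed by more than 1.5 times in 3 comparisons under another scaling, filter or test, and in 3 when a library was left out (D-2, D-3 and DP-3 against FIT). In D-2 against FIT the count of 5 was 3 with limma on log2(FPKM + 1), where 905 of 19513 genes passed. In DP-3 against FIT the count of 3 was 0 with FPKM of at least 1, with either limma setting and with the replicate block. Of all genes, 804 of 12154 passed with FPKM of at least 1 and 164 of 20039 with the replicate block. Limma called 1056 of 20039 on log2(FPKM + 0.1) and 438 of 20039 on log2(FPKM + 1). In IT against FIT the count of 0 was 2 with DESeq2, 1 without a filter and 2 in 1 fit of all 18 libraries. Of all genes, 661 of 21183, 53 of 36728 and 553 of 21183 passed there, in the same order. The cause was not tested. With 1 library left out, the counts ranged from 21 to 24 over the 6 groups, 2 to 9 in D-2 against FIT (9 without FIT replicate 3), 7 to 15 in D-3 against FIT (9 without D-3 replicate 1 and 7 without D-3 replicate 3), 0 to 6 in DP-3 against FIT (1 without DP-3 replicate 2 and 6 without FIT replicate 3), 0 to 0 in IT against FIT, 5 to 8 in DP-3 against DP-3 day 1, 11 to 13 in DP-3 day 1 against D-2, 13 to 14 in D-3 against D-2 and 8 to 11 in DP-3 against D-3. Of all genes in DP-3 against FIT, 242 of 19330 passed without DP-3 replicate 2 and 1438 of 19123 without FIT replicate 3. Calls split as 3 higher and 3 lower in DP-3 against DP-3 day 1, but as 0 and 5 with limma on log2(FPKM + 1), 2 and 4 with FPKM of at least 1 and 4 and 2 without a filter. In D-2 against FIT the split of 2 and 3 became 0 and 3 with limma on log2(FPKM + 1), 1 and 4 with FPKM of at least 1, and 3 and 2 without a filter or with the replicate block.

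In the labels, replicates share only a number. Deviations of same-numbered libraries correlated by -0.034 to 0.041, and in no comparison did every library correlate best with its own number. IT and FIT pieces may come from the same tumors, and this check cannot exclude pairing under another order. With the replicate block the counts were 22 over the 6 groups, 5 for D-2 against FIT, 14 for D-3 against FIT, 0 for both DP-3 and IT against FIT, 7 in DP-3 against DP-3 day 1, 11 in DP-3 day 1 against D-2, 13 in D-3 against D-2 and 8 in DP-3 against D-3. FIT replicate 3 has the lowest total count, so counting precision is lowest there.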
